A study of Rattus norvegicus with 138 samples.

Results

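The 9 genes described here encode receptors for ATP, ADP or adenosine. They were taken by symbol from the deposited tables of the nucleus of the solitary tract (NTS), the caudal ventrolateral medulla (CVLM) and the rostral ventrolateral medulla (RVLM), which list 32883 genes each. 5 are subunits of the ATP-gated P2X channels (P2rx2, P2rx3, P2rx4, P2rx5 and P2rx7), 1 is the ADP receptor gene P2ry1, and 3 are adenosine receptor genes (Adora1, Adora2a and Adora2b). In that order, the tables name them ENSRNOG00000037456, ENSRNOG00000008552, ENSRNOG00000001300, ENSRNOG00000019208, ENSRNOG00000001296, ENSRNOG00000014232, ENSRNOG00000003442, ENSRNOG00000001302 and ENSRNOG00000002922. All 9 passed the filter on low counts in each region, where 13793, 13408 and 13411 genes passed in the NTS, CVLM and RVLM. The samples came from 46 female rats kept 1 to a cage: 18 normotensive Wistar-Kyoto rats (WKY/NHsd), with 5 rats aged 8 wk, 4 aged 10 wk and 3 each aged 12, 16 and 24 wk, and 28 spontaneously hypertensive rats (SHR/NHsd), with 5 rats at each of the first 2 ages and 6 at each of the others. Punches of both sides were pooled within a rat, and every rat gave 1 library for each region. The labels name no treatment and no altered gene, and these are inbred strains, so a difference due to blood pressure and any other difference between the strains cannot be told apart.

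As background, ATP leaves neurons and glia by vesicles and channels and opens the P2X cation channels or activates G protein-coupled P2Y receptors. Enzymes on the cell surface break ATP down stepwise to adenosine, which acts on the A1 receptor, coupled to the inhibitory G protein Gi, and on the A2a and A2b receptors, coupled to the stimulatory G protein Gs. In the NTS these messengers shape the relay of baroreceptor and chemoreceptor signals, and in the ventrolateral medulla they act on neurons that set sympathetic outflow.

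The promoter entries of Adora2b and Adora1 are shown because these were the 2 members whose mean strain effect was called under every alternative setting tried on that effect. The RefSeq table for the rat build GRCr8 held a promoter for 6 of the 9 members, matched by symbol, and P2rx2, P2rx5 and Adora2a had no entry. The 250 bases before the start of Adora2b lie at chr10:47439462-47439711 on the plus strand, those of Adora1 at chr13:48246832-48247081 on the minus strand, and both are printed 5′ to 3′ with GC boxes (GGGCGG on either strand) in capitals.
Adora2b: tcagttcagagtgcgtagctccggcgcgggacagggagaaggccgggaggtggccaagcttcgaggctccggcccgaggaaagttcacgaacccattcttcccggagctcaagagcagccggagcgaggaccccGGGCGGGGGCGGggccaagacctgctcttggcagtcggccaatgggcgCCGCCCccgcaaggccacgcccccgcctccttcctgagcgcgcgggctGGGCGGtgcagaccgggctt
Adora1: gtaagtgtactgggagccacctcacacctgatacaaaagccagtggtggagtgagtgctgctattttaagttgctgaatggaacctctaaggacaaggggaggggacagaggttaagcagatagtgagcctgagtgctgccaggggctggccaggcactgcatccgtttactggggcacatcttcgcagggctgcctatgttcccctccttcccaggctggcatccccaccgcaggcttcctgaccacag
The Adora2b stretch was 71.2% G or C and held 4 GC boxes, some of which adjoin each other, and 1 CCAAT box. The Adora1 stretch was 56.8% G or C and held neither of these motifs. Over all 33469 promoters of the same length, the median G or C content was 51.2%, 30.5% held at least 1 GC box, 3.67% held 4 or more, and 34% held a CCAAT box. The counts were not made in this build, and these matches describe the letters only.

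The libraries held between 5904570 and 17889406 counts, with a median of 10143018, and the values below are CPM, in which a gene's count is divided by the total of its library and put on a common depth, scaled for library composition but not for gene length, so that levels are compared within a gene only. The names of the libraries end in the number 1 or 2, whose meaning is not given. Number 2 stands on all 27 libraries of 10 wk, on those of 3 WKY rats out of 5 at 8 wk, and on those of 1 SHR each at 12 and 24 wk. These libraries held 9489482 to 17889406 counts and those of number 1 held 5904570 to 11920640. Pnmt, which makes adrenaline in the C1 neurons that the RVLM is known for, had a median of 19.7 CPM in the RVLM (range 0.910 to 67.0), 41.8 CPM in the CVLM and 3.60 CPM in the NTS, so it was not highest in the region labelled RVLM. The summed markers of cholinergic and vagal motor neurons were highest in the RVLM, with a median of 1360 CPM in WKY rats against 350.2 in the NTS and 109 in the CVLM. In punches of whole tissue, fewer cells of a type and less RNA per cell cannot be told apart.

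Among the members, P2rx2 and P2rx5 had the largest log2 differences between regions. P2rx2, whose channels carry fast ATP currents in neurons, was highest in the NTS, intermediate in the CVLM and lowest in the RVLM. Over the 46 rats, its lowest, median and highest levels were 11.2, 19.9 and 35.0 CPM in the NTS, 2.82, 5.85 and 9.32 CPM in the CVLM, and 0.533, 1.36 and 2.58 CPM in the RVLM, so that none of the 3 ranges overlapped. Each of the 46 rats had the order NTS above CVLM above RVLM. In a fit with the rat as a block, P2rx2 in the NTS was 14.5-fold its level in the RVLM (log2 difference 3.86 ± 0.09 SE, adjusted p = 8.98e-60, edgeR's quasi-likelihood test with Benjamini-Hochberg adjustment). This was place 72 by size among the 14043 genes tested. The NTS level was 3.45-fold that of the CVLM, which in turn was 4.21-fold that of the RVLM. It did not rest on 1 strain, with 15.1-fold between the NTS and RVLM in WKY rats and 13.97-fold in SHRs.

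P2rx5, another P2X subunit, had the opposite order. Its lowest, median and highest levels were 2.34, 5.31 and 10.2 CPM in the NTS, 7.01, 12.6 and 17.3 CPM in the CVLM, and 10.8, 18.1 and 23.3 CPM in the RVLM. No rat had more P2rx5 in the NTS than in either other region, and the levels in the NTS and RVLM did not overlap. The level in the NTS was 0.279 times that in the RVLM (log2 difference -1.84 ± 0.07 SE, adjusted p = 2.20e-45 by the same test) and 0.395 times that in the CVLM. The CVLM against RVLM difference was smaller, at -0.50 ± 0.06 on the log2 scale, and the ranges overlapped. P2rx4, a subunit found in neurons and microglia, followed the same order with a smaller step, at medians of 46.9, 56.2 and 61.4 CPM in the NTS, CVLM and RVLM and a log2 difference of -0.37 ± 0.03 between the NTS and RVLM.

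Adora1, the Gi-coupled adenosine receptor, was lowest in the NTS. Its lowest, median and highest levels were 74.9, 107 and 148 CPM in the NTS, 125, 162 and 229 CPM in the CVLM, and 104, 210.3 and 273 CPM in the RVLM. All 46 rats had less Adora1 in the NTS than in the RVLM and than in the CVLM, although the ranges overlapped across rats. The log2 difference between the NTS and RVLM was -0.98 ± 0.04 (adjusted p = 1.37e-39, edgeR). Adora2a, the Gs-coupled receptor best known from the striatum, went the other way. It had medians of 8.71, 4.54 and 5.16 CPM in the NTS, CVLM and RVLM, exceeded in the NTS its CVLM level in 46 of 46 rats and its RVLM level in 45, and differed between the NTS and CVLM by 0.93 ± 0.06 on the log2 scale (adjusted p = 2.07e-25).

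The other 4 members differed little between regions. P2rx3, a subunit known from sensory afferents, had medians of 1.89, 1.81 and 2.09 CPM, on 6 to 52 counts a library, with log2 differences of -0.31 ± 0.10 between the CVLM and RVLM (adjusted p = 0.00678) and 0.22 ± 0.10 between the NTS and CVLM (adjusted p = 0.0481). P2rx7, the subunit whose channel feeds the inflammasome in microglia, had medians of 2.99, 3.41 and 3.87 CPM and differed only between the NTS and RVLM (-0.24 ± 0.10, adjusted p = 0.0248). P2ry1 had medians of 13.02, 11.3 and 15.1 CPM, with log2 differences of -0.20 ± 0.09 between the NTS and RVLM and -0.21 ± 0.09 between the CVLM and RVLM (adjusted p = 0.0395 and 0.0438). Adora2b, the A2b receptor, which needs higher adenosine than the others, had medians of 14.9, 15.0 and 17.0 CPM and log2 differences of -0.15 ± 0.05 and -0.13 ± 0.05 between the same pairs (adjusted p = 0.00219 and 0.0133). These p-values are from edgeR's quasi-likelihood test with Benjamini-Hochberg adjustment over all genes.

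In all, 8 of the 9 members were called for the NTS against the RVLM, 6 for the NTS against the CVLM and 8 for the CVLM against the RVLM, where called means an adjusted p under 0.05. Of all genes, 73.5%, 65.9% and 54.5% were called in the same comparisons. The members' counts were not tested against these shares. The punches also differed in their cells. The summed markers of catecholamine neurons had medians of 240, 277 and 76.4 CPM in the NTS, CVLM and RVLM of WKY rats, those of NTS neurons 25.8, 9.12 and 5.25 CPM, and those of microglia 315, 238 and 251 CPM. In the same order and strain, oligodendrocyte markers had medians of 25482, 54482 and 45770 CPM, and general neuron markers 2962, 4412 and 4479 CPM. Medians for endothelium were 111, 150 and 175 CPM, and those for astrocytes 1912, 1362 and 1363 CPM. The part of these cells in the region differences of the receptors was not tested.

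**Figure D1:**
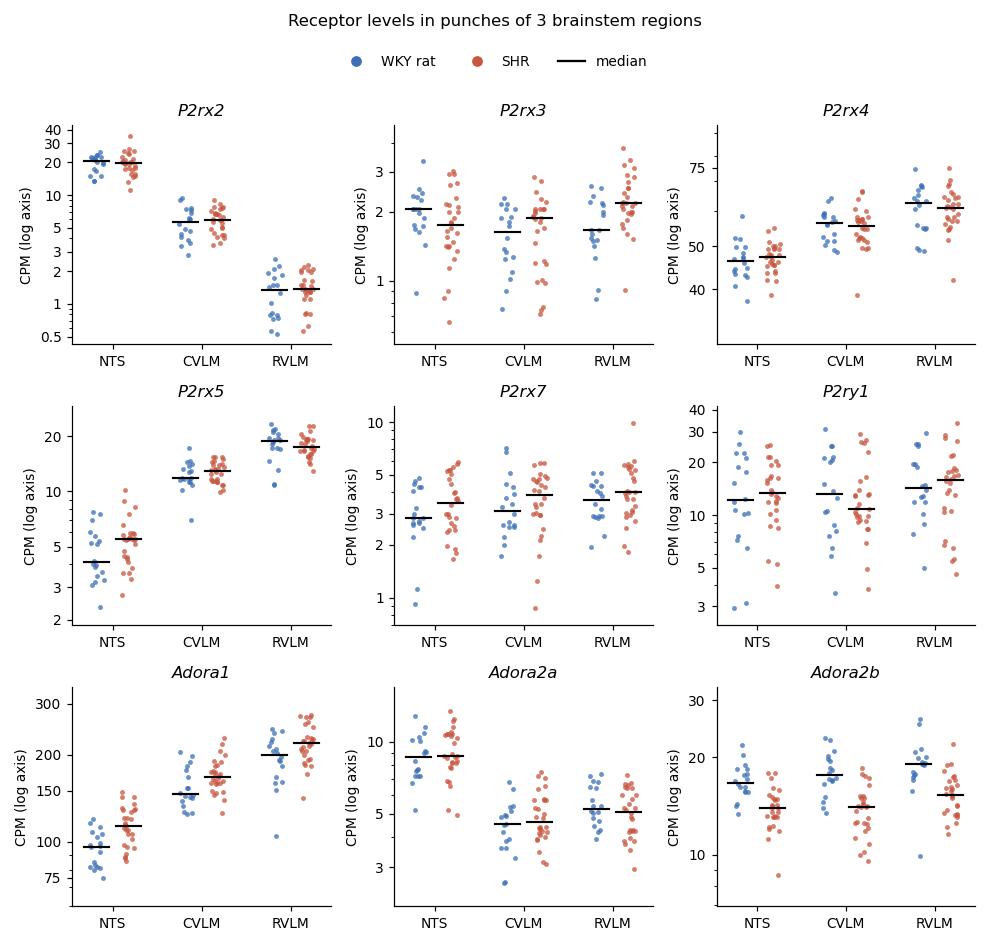
Levels of the 9 receptors in the NTS, CVLM and RVLM, in CPM on log axes, with 1 point for each of the 18 WKY rats and 28 SHRs and a bar at the median. P2rx2 steps down from a median of 19.9 CPM in the NTS to 1.36 CPM in the RVLM, P2rx5 and Adora1 step up, and Adora2b is lower in the SHRs than in the WKY rats in all 3 regions.

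The question of the study was how SHRs differ from WKY rats before, at and after the onset of hypertension. The log2 fold change of SHRs against WKY rats was averaged over the 5 ages with equal weight. Adora2b was lower in SHRs in all 3 regions, Adora1 was higher in the NTS, and P2rx3 was higher in the RVLM at the edge of the threshold. That made 2, 1 and 2 of the 9 members called in the NTS, CVLM and RVLM, against 11.2%, 12.3% and 10.8% of all genes. Of all genes in the NTS, 5.66% were called higher and 5.51% lower in SHRs, in the CVLM 5.28% and 7%, and in the RVLM 5.84% and 4.98%. The median of the 9 members' mean log2 fold changes was 0.03, 0.04 and 0.04 in the NTS, CVLM and RVLM, beside 0.0097, -0.003 and 0.0088 over all genes. In each region 7 of the 9 members had a value above 0 and 2 a value below 0, called or not.

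In the NTS, Adora2b ranged from 13.4 to 21.8 CPM in WKY rats, with a median of 16.7 (n = 18), and from 8.69 to 17.9 CPM in SHRs, with a median of 13.9 (n = 28). The lowest, median and highest levels in the CVLM were 13.5, 17.6 and 22.9 CPM in WKY rats and 9.59, 14.04 and 18.5 CPM in SHRs. RVLM levels were 9.90, 19.1 and 26.3 CPM in WKY rats and 11.6, 15.3 and 21.9 CPM in SHRs. The groups overlapped when ages were put together, and 25, 26 and 27 of the 28 SHRs lay below the median of the WKY rats in the NTS, CVLM and RVLM. The 3 regions come from the same rats, so these counts are not independent of each other. Adora2b was 0.83-fold in SHRs in the NTS (mean log2 fold change -0.27 ± 0.06 SE, adjusted p = 0.00133, edgeR's quasi-likelihood test with Benjamini-Hochberg adjustment), 0.766-fold in the CVLM (-0.38 ± 0.07, adjusted p = 0.000109) and 0.797-fold in the RVLM (-0.33 ± 0.07, adjusted p = 0.000982). With the library number as a term, or without the number 2 libraries outside 10 wk, Adora2b remained called in each region.

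At single ages, Adora2b had a negative log2 fold change in 15 of 15 tests, from -0.01 to -0.64, and was called in 3 of them. At 10 wk in the NTS, Adora2b was 21.8, 19.0, 17.2 and 17.8 CPM in the 4 WKY rats and 11.8, 11.2, 15.1, 14.2 and 8.69 CPM in the 5 SHRs. Every SHR was below every WKY rat there, with a log2 fold change of -0.59 ± 0.13 (adjusted p = 0.00363, edgeR). The CVLM at 8 wk had 13.5, 22.9, 17.9, 19.5 and 20.1 CPM in the WKY rats and 10.2, 12.1, 14.1, 11.3 and 12.5 CPM in the SHRs. Only 1 of these WKY rats reached into the range of the SHRs, and the log2 fold change was -0.64 ± 0.15 (adjusted p = 0.00518). Without the 3 WKY libraries of number 2 at that age, 2 WKY rats were left, and Adora2b had -0.57 with an adjusted p of 0.263. The CVLM call was kept without the 2 libraries titled 8 wk but labelled 10 wk.

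In the RVLM at 12 wk, Adora2b was 21.2, 26.3 and 19.1 CPM in the 3 WKY rats, against 13.1, 13.8 and 16.9 CPM as the lowest, median and highest of the 6 SHRs. Again no SHR reached the WKY rats (-0.62 ± 0.16, adjusted p = 0.0305, edgeR). The call was lost without replicate 2 of the WKY rats, the one at 26.3 CPM (-0.49, adjusted p = 0.464), and without replicate 1 (-0.66, adjusted p = 0.077). At 16 wk the groups did not overlap in the CVLM, with 17.3, 16.9 and 18.5 CPM in WKY rats and at most 15.2 CPM in SHRs, or in the RVLM, with 19.2, 20.8 and 25.4 CPM in WKY rats and at most 19.0 CPM in SHRs, although Adora2b was not called there (adjusted p = 0.731 and 0.459). At 24 wk the log2 fold changes of Adora2b were closest to 0, at -0.01 ± 0.14, -0.09 ± 0.17 and -0.14 ± 0.17 for the NTS, CVLM and RVLM. A test of whether the strain effect on Adora2b differs between ages gave adjusted p = 0.43, 0.619 and 0.875 in the NTS, CVLM and RVLM, so the smaller values at 24 wk were not shown to differ from those of the other ages. None of the 9 members was called in that test by edgeR, nor were more than 0.0145%, 0.0224% and 0.00746% of all genes. P2ry1 in the CVLM was alone in having an unadjusted p under 0.05 in it, with an adjusted p of 0.323.

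**Figure D2:**
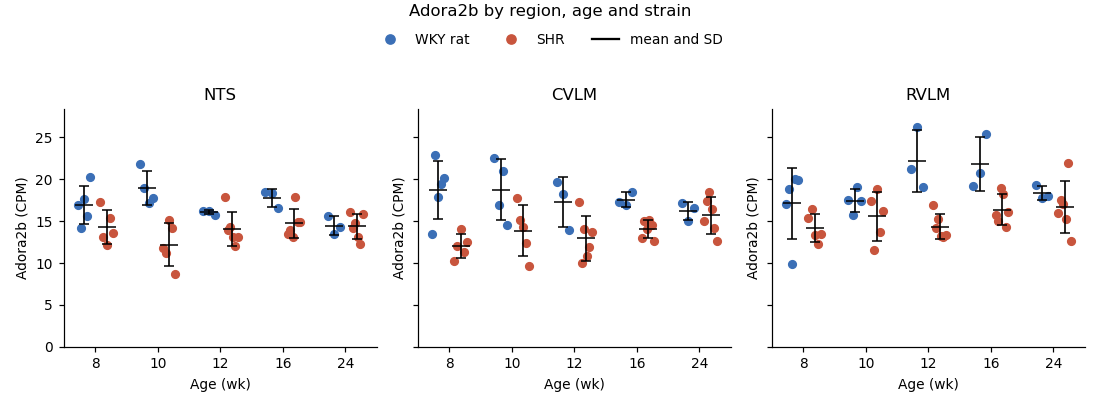
Adora2b in CPM by age in the NTS, CVLM and RVLM, with 1 point for each WKY rat and SHR and bars at the mean and SD of the 3 to 6 rats of a group. SHRs lie below the WKY rats without overlap at 10 wk in the NTS and at 16 wk in the CVLM. They also do so at 12 and 16 wk in the RVLM, and the groups overlap in every other pair of region and age.

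Markers of other cells moved with strain in part. Of all genes, 5.66%, 5.28% and 5.84% were called higher in SHRs and 5.51%, 7% and 4.98% lower in the NTS, CVLM and RVLM. The markers' counts were not tested against these shares. Of 5 astrocyte markers, none was called in the NTS or CVLM, and 1, Aldh1l1, was higher in SHRs in the RVLM. Of 5 oligodendrocyte markers, 3 were lower in SHRs in the CVLM, 2 in the RVLM and 0 in the NTS. Their sum ranged from 39000 to 73895 CPM in WKY rats and from 38821 to 65642 CPM in SHRs in the CVLM. Of 7 microglia markers, Tmem119 was lower in all 3 regions and Aif1 in the CVLM, while the sum in the NTS had medians of 315 CPM in WKY rats and 318 CPM in SHRs. In the NTS, 3 of 4 choroid plexus markers and both tested markers of ependyma were lower in SHRs, as was the 1 ependyma marker tested in the RVLM, Dynlrb2. The summed choroid plexus markers in the NTS were between 103 and 4424 CPM in 5 of the 18 WKY libraries, at most 9.42 CPM in the others and at most 6.59 CPM in the SHRs, and Ttr was at 0 in 9 of the 46 libraries. Without these 5 libraries, an alternative chosen after seeing the data that leaves 1 WKY rat at 12 wk, the mean log2 fold change in the NTS was -0.29 for Adora2b (adjusted p = 0.00574, edgeR) and 0.26 for Adora1 (adjusted p = 0.0357). The part of the oligodendrocyte, microglia and ependyma markers in the difference of Adora2b was not tested.

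Adora1 had lowest, median and highest levels of 74.9, 96.3 and 119.7 CPM in WKY rats and 85.5, 113.5 and 148 CPM in SHRs of the NTS. There 22 of the 28 SHRs lay above the median of the WKY rats, and the ranges overlapped. It was 1.19-fold higher in SHRs (0.25 ± 0.06, adjusted p = 0.00537, edgeR). The values in the CVLM and RVLM were 0.12 ± 0.06 and 0.15 ± 0.08 (adjusted p = 0.184 and 0.257), and the strain effects in the NTS and RVLM differed by 0.08 ± 0.08 on the log2 scale (adjusted p = 0.699), so that a difference between regions was not shown. At single ages Adora1 was not called, with 14 of 15 values above 0, but at 8 wk it was called without replicate 1 of the WKY rats in the NTS (0.41, adjusted p = 0.0475) and in the CVLM (0.40, adjusted p = 0.0241). Adora2a was not called for strain in any test. Its mean log2 fold changes in the NTS, CVLM and RVLM were 0.03 ± 0.10, 0.09 ± 0.11 and -0.14 ± 0.09.

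Among the P2X subunits, the mean strain effect was called for P2rx3 in the RVLM alone. Its lowest, median and highest levels there were 0.837, 1.66 and 2.59 CPM in WKY rats and 0.915, 2.18 and 3.82 CPM in SHRs, on 6 to 51 counts. The ranges overlapped widely, although 25 of 28 SHRs were above the median of the WKY rats. The mean log2 fold change of P2rx3 was 0.38 ± 0.13 with an adjusted p of 0.0488 by edgeR, and the call was lost in 19 of 28 fits that left out 1 rat, with an adjusted p of up to 0.127 without replicate 2 of the WKY rats of 16 wk, and in 5 of 6 other settings. In the NTS the value was -0.14 ± 0.15, and the difference in strain effect between these regions was -0.54 ± 0.20 (adjusted p = 0.144).

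P2rx2, for all its regional difference, had mean log2 fold changes of 0.00 ± 0.09, 0.04 ± 0.12 and 0.10 ± 0.16 between strains in the NTS, CVLM and RVLM. At 10 wk in the RVLM, P2rx2 was 0.533, 0.723, 0.748 and 0.784 CPM in the WKY rats and 1.48, 0.809, 0.821, 1.31 and 1.198 CPM in the SHRs. Every SHR was above every WKY rat, yet on 8 to 20 counts a library the value of 0.68 ± 0.36 was not called (adjusted p = 0.731, edgeR). P2rx5 was 12.7, 11.2 and 11.8 CPM in the WKY rats of 12 wk in the CVLM, below the 12.8, 14.5 and 15.5 CPM of the lowest, median and highest SHR (0.24 ± 0.15, adjusted p = 0.62). P2rx4 had the narrowest spread of strain effects among the 9 members, between -0.18 and 0.18 on the log2 scale over the 15 tests of age and region. Over the 135 tests of a member at 1 age in 1 region, the groups did not overlap in 6, of which 4 were Adora2b. These were 1 of 45 in the NTS, 2 of 45 in the CVLM and 3 of 45 in the RVLM. Of all pairs of a gene and an age, 6.07%, 6.75% and 5.74% did not overlap in these regions. The members' counts were not tested against these shares.

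P2rx7 was called in the RVLM at 8 wk. It was 2.85, 2.90, 1.95, 4.03 and 3.18 CPM in the WKY rats and 4.01, 5.70, 9.84, 3.64 and 3.95 CPM in the SHRs, with 1 SHR far above the rest and an overlap of the groups. The log2 fold change was 0.83 ± 0.27 (adjusted p = 0.0408, edgeR). Without that SHR, replicate 3, P2rx7 had 0.53 and an adjusted p of 0.211, and without the WKY rat at 1.95 CPM 0.71 and 0.133. With the library number as a term the adjusted p was 0.112. The call of P2rx7 was kept in 23 of 28 fits that left out 1 rat and in 2 of 7 other settings. P2ry1 was called in the CVLM at 8 wk (-0.90 ± 0.29, adjusted p = 0.0466, edgeR). There it was 7.63, 15.0, 20.2, 24.8 and 24.7 CPM in the WKY rats and 3.79, 12.9, 6.93, 9.09 and 16.5 CPM in the SHRs. The call was kept in 12 of 28 fits that left out 1 rat and in 4 of 8 other settings. Those that kept it include the fit without the 2 libraries titled 8 wk but labelled 10 wk. The 3 highest WKY rats were those with libraries of number 2, and without these P2ry1 had a log2 fold change of -0.17 with an adjusted p of 1.

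The 9 members gave 0, 1, 0, 0 and 0 calls in the NTS at the ages in rising order, where 5.79%, 4.44%, 3.1%, 1.73% and 2.46% of all genes were called. The CVLM had 2, 0, 0, 0 and 0 calls beside 7.64%, 3.18%, 2.62%, 2.27% and 7.13%, and the RVLM 1, 0, 1, 0 and 0 beside 9.78%, 2.3%, 1.7%, 1.65% and 2.24%. Whether a strain effect differed between regions was tested over all ages. None of the 9 members was called by edgeR between the NTS and RVLM, the NTS and CVLM, or the CVLM and RVLM, against 1.93%, 0.328% and 0.385% of all genes, and 2 of the 27 tests had an unadjusted p under 0.05, P2rx3 for the NTS against the RVLM (adjusted p = 0.144) and Adora2a for the CVLM against the RVLM (adjusted p = 0.691). For Adora2b the differences were 0.01 ± 0.09, 0.09 ± 0.09 and -0.08 ± 0.09 on the log2 scale.

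**Figure D3:**
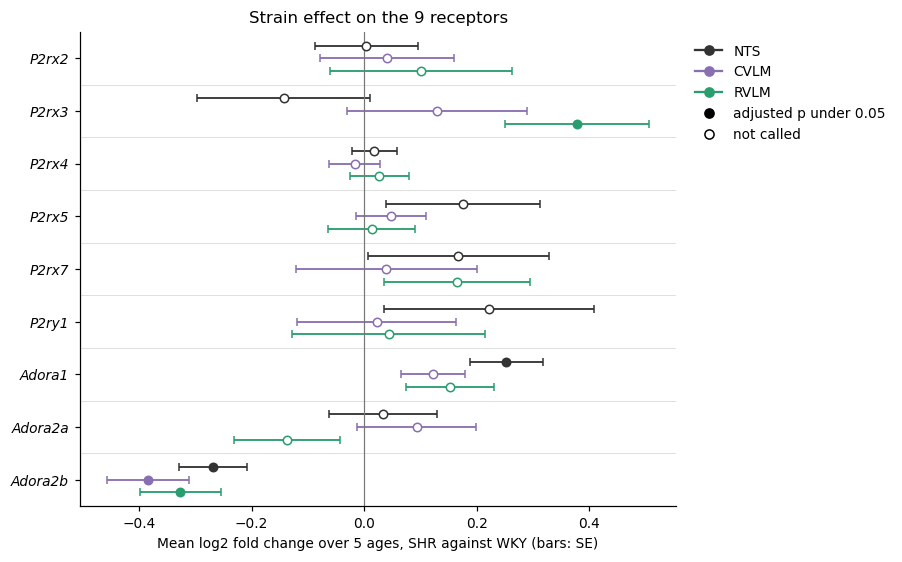
Mean log2 fold change of SHRs against WKY rats over the 5 ages for the 9 receptors in the NTS, CVLM and RVLM, with bars of 1 SE and filled points for an adjusted p under 0.05. The values of Adora2b, -0.27, -0.38 and -0.33, lie apart from 0 in all 3 regions, Adora1 is at 0.25 in the NTS and P2rx3 at 0.38 in the RVLM.

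P2ry1, the Gq-coupled ADP receptor of neurons and glia, was the 1 member whose level was called as differing between ages within a strain when all libraries were used. Without number 2 libraries outside 10 wk, age was also called for P2rx7 in the CVLM in WKY rats (adjusted p = 0.0146, edgeR) and SHRs (0.00302). The same held for P2rx7 in the RVLM in SHRs (0.0491) and for Adora2a in the NTS in SHRs (0.0499). In those fits all libraries of 10 wk have number 2 and all others number 1. Age and number cannot be told apart in these added calls. In the CVLM the median of P2ry1 in WKY rats was 20.2, 21.4, 8.73, 12.6 and 6.46 CPM from the youngest to the oldest age. In SHRs it was 9.09, 26.1, 10.9, 10.1 and 9.29 CPM. At 10 wk the lowest SHR, at 23.1 CPM, was above all SHRs of the other ages. The F test over ages gave P2ry1 an adjusted p of 0.000952 in WKY rats and 0.000399 in SHRs of the CVLM (edgeR). It gave 0.0303 in WKY rats of the NTS and 0.0298 in SHRs of the RVLM. The shares of all genes called within WKY rats were 12.5%, 22.2% and 6.79% in the NTS, CVLM and RVLM, and within SHRs 18.7%, 20% and 14.1%. Between 24 and 8 wk, P2ry1 decreased by 1.39 ± 0.36 on the log2 scale in WKY rats of the CVLM (adjusted p = 0.00946), with 0.06 ± 0.28 in SHRs. Of the WKY rats of 8 wk, 3 have libraries of number 2, and those of 24 wk have number 1 only. Without number 2 libraries outside 10 wk, chosen here after seeing the data, the value of P2ry1 was -0.69 with an adjusted p of 0.441.

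The level of P2ry1 moved with the library number. In the CVLM the 32 libraries of number 1 ranged from 3.56 to 16.5 CPM, with a median of 9.92, and the 14 of number 2 from 13.2 to 30.9 CPM, with a median of 23.9. The medians were 11.2 and 21.3 CPM in the NTS and 12.97 and 25.1 CPM in the RVLM. Within the WKY rats of 8 wk, the only group with several rats of each number, the mean of P2ry1 was 11.3 CPM in 2 rats of number 1 and 23.2 CPM in 3 of number 2 in the CVLM, 9.81 and 22.2 CPM in the NTS, and 11.9 and 20.1 CPM in the RVLM, where 1 of the 3 lay at 10.2 CPM. The SHR of number 2 was the highest of its group in 5 of 6 groups of region and age at 12 and 24 wk. As a term in the fit, number 2 against 1 had a log2 difference of 0.75 for P2ry1 in the CVLM (adjusted p = 0.0243, edgeR), 0.70 in the NTS (adjusted p = 0.14) and 0.74 in the RVLM (adjusted p = 0.0839). Without 10 wk, the age tests of P2ry1 gave an adjusted p of 0.392 in WKY rats of the NTS, 0.981 in SHRs of the CVLM and 0.988 in SHRs of the RVLM, and 0.0476 in WKY rats of the CVLM, whose 8 wk group holds both numbers. All libraries of 10 wk have number 2, so age and number cannot be told apart there.

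P2rx7 moved the other way in the CVLM. Its level was 4.27 CPM at the median of number 1 and 2.36 CPM at that of number 2, and among the WKY rats of 8 wk it was 7.11 and 6.74 CPM in those of number 1 and 2.21, 1.72 and 3.41 CPM in those of number 2. The term for number 2 was -1.37 on the log2 scale (adjusted p = 6.88e-05). Such a term was also called for Adora2a in the NTS (-0.50, adjusted p = 0.0333) and for Adora1 in the RVLM (-0.42, adjusted p = 0.036), and so for 1, 2 and 1 of the 9 members in the NTS, CVLM and RVLM, against 25.6%, 21.6% and 16.4% of all genes (edgeR). For Adora2b it was 0.12, -0.04 and -0.21 and was not called.

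**Figure D4:**
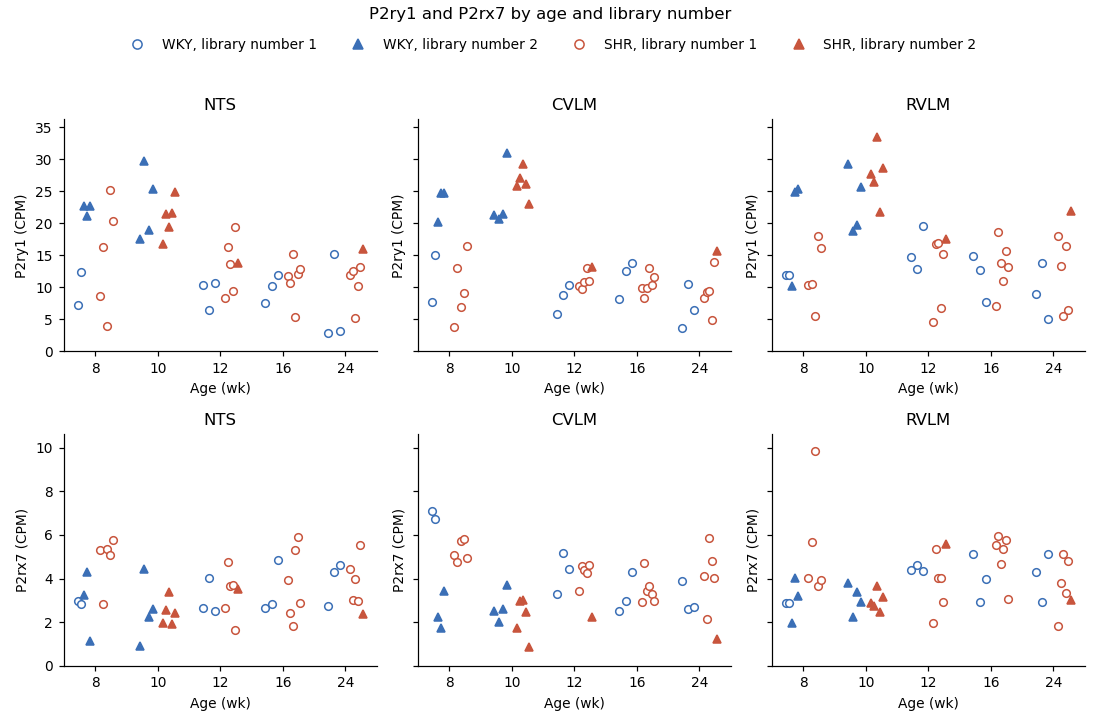
P2ry1 (upper row) and P2rx7 (lower row) in CPM by age in the NTS, CVLM and RVLM, with open circles for libraries of number 1 and filled triangles for those of number 2. The triangles of P2ry1 lie above the WKY circles at 8 wk in the CVLM, and all points of 10 wk are triangles, with medians of 23.9 CPM for number 2 and 9.92 CPM for number 1 over all ages, and those of P2rx7 lie low in the CVLM.

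Other genes that release, sense or clear nucleotides are given by list. The mean strain effect was called in either direction for 11.2%, 12.3% and 10.8% of all genes in the NTS, CVLM and RVLM. Of 9 other receptor genes, 7 were tested in each region. P2ry6, the UDP receptor known from microglia, was lower in SHRs in the NTS (-0.73 ± 0.11), CVLM (-0.87 ± 0.12) and RVLM (-0.70 ± 0.14), with adjusted p-values of 5.96e-06, 6.78e-07 and 0.000268 by edgeR. P2ry2, a receptor for ATP and UTP, was higher in the NTS (0.49 ± 0.12, adjusted p = 0.00434). The others were not called, so that this list had 1 higher and 1 lower in the NTS and 1 lower in the CVLM and in the RVLM. Of 5 genes of ATP release, Calhm2, a large-pore channel, was lower in the NTS (-0.79 ± 0.14) and RVLM (-0.63 ± 0.19), and the vesicular transporter Slc17a9, both pannexins and connexin 43 (Gja1) were not called.

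Of the enzymes that break ATP down, 3 of 7 tested were higher in the NTS, 2 of 7 in the CVLM, and 3 higher and 1 lower in the RVLM, beside 11.2%, 12.3% and 10.8% of all genes called in either direction. Their median log2 fold changes were 0.06, 0.15 and 0.05, beside 0.0097, -0.003 and 0.0088 over all genes. Enpp1, a pyrophosphatase that splits ATP to AMP, was higher in SHRs in the NTS (0.35 ± 0.08), CVLM (0.72 ± 0.08) and RVLM (0.74 ± 0.09). Nt5e, the enzyme CD73 that turns AMP into adenosine, was 1.16-fold higher in the NTS and 1.21-fold in the RVLM (adjusted p = 0.0249 and 0.00468, edgeR), and Alpl, a phosphatase with the same product, was higher in the CVLM (0.40 ± 0.07) and RVLM (0.32 ± 0.08). Entpd3, an ATPase of the cell surface, was 1.14-fold higher in the NTS, and Enpp3 was 0.683-fold in the RVLM. Of 6 tested genes of adenosine uptake and metabolism, Ada, which turns adenosine into inosine, was lower in the CVLM (-0.57 ± 0.15, adjusted p = 0.0056) and RVLM (-0.65 ± 0.14, adjusted p = 0.000749). None of the 8 G protein alpha subunit genes that couple these receptors was called in any region by edgeR, and none had an unadjusted p under 0.05. Of the inflammasome genes downstream of P2rx7, Il18 was higher in the CVLM (0.35 ± 0.11, adjusted p = 0.0236) and the rest were not called.

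**Figure D5:**
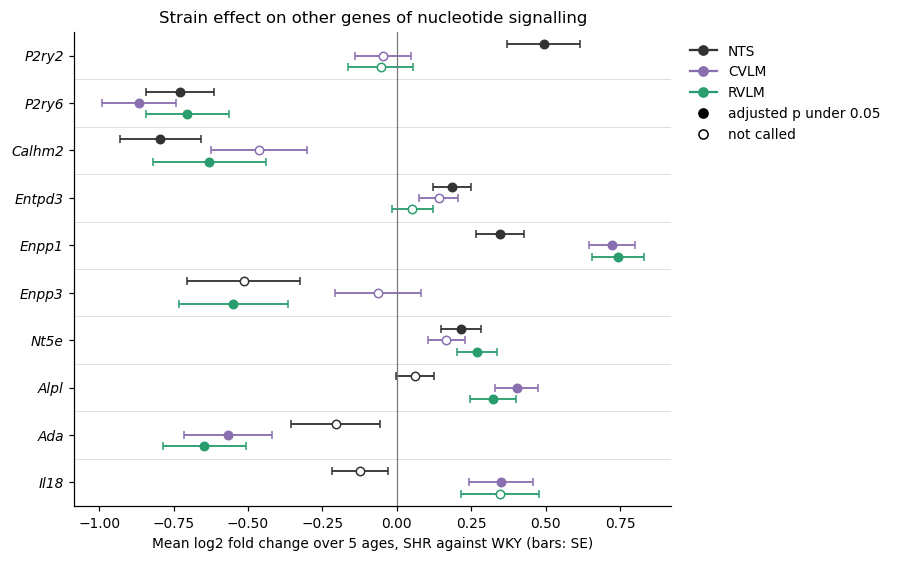
Mean log2 fold change of SHRs against WKY rats over the 5 ages for the 10 genes of the nucleotide lists called in at least 1 region, with bars of 1 SE and filled points for an adjusted p under 0.05. P2ry6 lies between -0.70 and -0.87 and Enpp1 between 0.35 and 0.74 in the 3 regions.

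The genes most like each member were found by the Pearson correlation over the 30 group means of log2 CPM, among 13116 genes that passed the filter in all regions. These means share the same rats across regions and can follow region steps, so the coefficients are descriptions. The level of P2ry1 moved with the library number, whose part in its correlations was not tested. P2rx2 was most like Zic4 and Fxyd6 (r = 0.98 for each), P2rx5 most like Nckipsd and Vamp1 (0.98 for each), and Adora1 most like Vamp1 (0.97) and Cyth1 (0.96). Adora2a was most like Cldn9 and Iqcd (0.93 for each), P2rx4 most like Pmpca (0.94) and Mapk12 (0.93), and P2ry1 most like Rab10 (0.96) and Exoc5 (0.95). The remaining members had less close partners. Adora2b was nearest to Etnppl and Cyp4f17 (0.83 for each), P2rx7 to Dhcr7 (0.83) and Glyctk (0.82), and P2rx3 to Ctnna2 (0.71) and Dpyd (0.69). Among the members themselves, P2rx5 and Adora1 had r = 0.95 and P2rx2 and P2rx5 r = -0.94.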

How the data were processed

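RNA-seq was analysed from the NTS, CVLM and RVLM of 46 rats. The deposited tables, 1 per region, hold expected counts per gene, which the authors made with STAR and RSEM on the rat build rn6. Of the values, 5.02%, 4.95% and 4.88% were not whole in the NTS, CVLM and RVLM, and all were rounded here. The study's methods name ComBat_seq, a batch adjustment of counts, and whether the deposited counts had passed through it is not given in the sources used here. Libraries were grouped by strain and age from the labels, and 2 CVLM libraries titled 8 wk but labelled 10 wk were placed at 8 wk. All value columns were mapped to samples.

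Genes were kept where the rlog value reached 3.5 in a library of the region. Strain and age were tested in each region with edgeR 4.0.16 (R 4.3.3, quasi-likelihood test, robust, TMM normalization) over 10 groups of strain and age, and regions in 1 fit over 138 libraries with the rat as a block. P-values were adjusted by Benjamini-Hochberg over all genes kept and called under 0.05. The scripts were tested on simulated data. Alternatives used DESeq2 1.42.0, its size factors, no filter, a block for replicate number, single ages, the library number, left-out libraries (2 such alternatives were added after seeing the data), and a stricter threshold of an adjusted p of at most 0.01 with a 2-fold change. Replicates of a group are separate rats, and the p-values for strain and age measure the spread between them. Those for regions rest on the spread that is left between punches once the rat is a block. The depth, 5904570 to 17889406 counts, left P2rx3 and, in the RVLM, P2rx2 at few counts.

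The named genes are the 9 members, the genes of the nucleotide lists called for the mean strain effect in at least 1 region, markers that a result turns on, and the 2 genes most correlated with each member. The members and lists were chosen with earlier results of these data known. Promoters came from RefSeq (GRCr8).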

Additional observations from a re-analysis of the deposited data

Results flagged for a closer look

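Of 189 tests for a library far from the others of its group of 4 to 6 rats, 15 found one, where chance gives about 1 in 20, or 9.45. In 14 of the 15 the group was of SHRs, which is where the groups of 4 or more rats mostly lie. The library lay highest for P2rx5 in 3 groups of SHRs, at 10.2 CPM in the NTS at 16 wk (next 5.85), 14.6 CPM in the CVLM at 8 wk (next 11.7) and 22.8 CPM in the RVLM at 12 wk (next 17.2). P2rx3 stood high in the RVLM at 3.36 CPM at 8 wk (next 2.005) and 3.82 CPM at 10 wk (next 2.43), and low in the CVLM at 12 wk at 0.718 CPM, on 8 counts (next 1.88).

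P2rx2 stood low in the NTS at 13.2 CPM at 8 wk (next 19.3) and 14.9 CPM at 10 wk (next 17.1), and P2rx7 low in the NTS at 2.84 CPM at 8 wk (next 5.06). P2rx4 stood high at 60.8 CPM in the CVLM at 16 wk (next 54.6) and 50.6 CPM in the NTS at 12 wk (next 46.5). Among the adenosine receptors, the high libraries were Adora1 at 175 CPM in the CVLM at 10 wk (next 162), Adora2a at 10.8 CPM in the NTS at 8 wk (next 8.89) and Adora2b at 17.9 CPM in the NTS at 16 wk (next 14.9). The 1 group of WKY rats was that of 10 wk in the CVLM, where P2ry1 reached 30.9 CPM (next 21.5). The causes were not tested.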

How the results depend on the processing

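The mean strain effects of Adora2b in 3 regions and of Adora1 in the NTS kept their direction and call under every alternative run on the mean effect. In the NTS this held also without the 5 libraries high in choroid plexus markers. It held too in each of 28 fits without 1 rat of a group of 3 to 5. Each age alone and the stricter threshold were applied to single ages only, not to the mean effect. In the RVLM the count of members called for the mean effect went from 2 to 1, by losing P2rx3, with DESeq2's size factors, without the filter, with DESeq2, with the library number and with the replicate block. Pairing by replicate number was not shown: over 54 pairs of equal number the correlation had a median of 0.134 and was over 0.1 in 32, but libraries of the same rat in other regions had a median of only 0.155, so the measure hardly separates the 2 kinds of pair. With this block, calls at single ages in the RVLM went from 2 to 0 and Adora2b in the NTS at 10 wk had an adjusted p of 0.0663, while Adora1 in the NTS at 8 wk was called (0.36, adjusted p = 0.0438). At single ages the 2 calls in the CVLM became 1 without the filter or with the library number and 0 without number 2 libraries, and those in the RVLM 0 without the filter and 1 with either. Each age alone, and the stricter threshold, gave 0 calls in the NTS, CVLM and RVLM, against 1, 2 and 2. For age within a strain, leaving out 10 wk gave 0, 1 and 0 calls, against 1, 2 and 1. Leaving out number 2 libraries outside 10 wk gave 2, 4 and 2, but there number 2 and 10 wk coincide and cannot be told apart. Without each of these 28 rats in turn, counts ranged from 2 to 2, 1 to 1 and 1 to 2 for the mean effect and from 1 to 2, 1 to 3 and 1 to 2 at single ages. P2ry1 in the NTS at 24 wk was called only without replicate 2 of the WKY rats (1.93, adjusted p = 0.0152). Between regions, both calls of P2ry1 were lost with DESeq2's size factors and without the rat as a block. No result reversed, and the causes were not tested. Of the alternative values of single calls, 359 kept the call and 71 lost it.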
